A study of Mus musculus with 7 samples.

Results

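Keratins are the intermediate filament proteins of epithelial cells, and 10 of their genes are described here in the lactating mammary gland: the simple keratins *Krt7*, *Krt8*, *Krt18* and *Krt19*, the basal keratins *Krt5*, *Krt14*, *Krt15* and *Krt17*, and *Krt23* and *Krt10*. They were taken by name from the 37310 genes of the count table, each matched to a single entry of the GENCODE vM1 annotation of mouse assembly NCBIM37. Mammary glands of C57BL/6 mice at lactation day 1 (L1) gave 3 libraries labelled WT and 4 labelled *Tardbp* KO, and their age is not given in the sources used here. By the study's methods, WT mice carried unmodified *Tardbp* with the WAP-Cre transgene, and *Tardbp* KO mice carried floxed *Tardbp* alleles, with loss of exons 2 and 3, and the same transgene, so that Cre was present in both groups. The promoter of the whey acidic protein gene drives this Cre in luminal cells from the middle of pregnancy, and the sequenced RNA came from whole gland tissue, in which fat, connective tissue, vessels and immune cells are also present. The question is whether the keratins of the luminal and the basal layer differed between glands with and without the floxed alleles of the gene of TDP-43, an RNA-binding protein.

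Keratin filaments are built from pairs of a type I and a type II protein, and neither type forms filaments alone. In the mammary gland, luminal cells, which make milk, are known for the pair of KRT8 (type II) and KRT18 (type I), with KRT7 and KRT19 as further simple keratins. The basal layer, made mostly of contractile myoepithelial cells, is known for the pair of KRT5 (type II) and KRT14 (type I), with KRT17 and KRT15 as further type I members. KRT10 is best known from the differentiated layers of the epidermis.

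The type II members lie on chromosome 15, *Krt7* at 101241474 to 101260744, *Krt5* at 101537501 to 101543322 and *Krt8* at 101827142 to 101834773. The type I members lie on chromosome 11, *Krt10* at 99246568 to 99250678, *Krt23* at 99339288 to 99354451, *Krt15* at 99993072 to 99997263, *Krt19* at 100002124 to 100009979, *Krt14* at 100064476 to 100068862 and *Krt17* at 100117531 to 100122343. The exception is *Krt18*, a type I gene that lies beside *Krt8* on chromosome 15, at 101858647 to 101862457. Between members of the same type, 40.8% to 80.0% of aligned amino acids were identical in the translated coding sequences, and between members of different types 28.2% to 38.2%. The highest value was that of *Krt14* and *Krt17*.

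The 27 coding bases at the end of the central rod domain, a stretch well conserved among keratins, are shown because they let the members be compared base by base. Each was found by translating the longest annotated protein-coding transcript, and it lies in exon 7 of the type II genes and in exon 6 of the type I genes. Sequences are given 5′ to 3′ on the sense strand. The stretch of *Krt8* lies at 101828292 to 101828318 of chromosome 15 on the minus strand, and that of *Krt18* at 101861913 to 101861939 on the plus strand. Capitals mark bases that differ from *Krt8* in type II genes and from *Krt18* in type I genes.
Krt8 (type II, simple): acctaccgcaagctgctggagggggag
Krt7 (type II, simple): acctaccgcaagctgctggagggCgag
Krt5 (type II, basal): acctacAgGaagctgctggagggCgag
Krt18 (type I, simple): acctaccgccgcttgctggaggatgga
Krt19 (type I, simple): acctaccgcAgcCtgctggaggGCCAG
Krt14 (type I, basal): acctaccgccgTCtgctggaggGAgAG
Krt17 (type I, basal): acctaccgccgTCtgctggaggGAgAG
Krt15 (type I, basal): acTtaccgGAAcCtgctCgaggGCCAG
Krt23 (type I): acctaccgccgGCtCctggaggGAgAC
Krt10 (type I): acctaccgcAgcCtgctAgaAgGAgAG
*Krt7* differed from *Krt8* at 1 base of this stretch, and *Krt14* and *Krt17* had the same bases throughout. *Krt15* differed from *Krt18* at 11 bases, the most among the type I members.

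Such similarity bears on the counts, because reads that map to several places were not counted. Copies of at least 95% identity over at least 100 bases, outside the gene itself, covered 96.0% of the *Krt8* transcript, in a single copy with an identity of 97.9%. They covered 17.8% of the *Krt14* transcript, 10.9% of *Krt5*, 10.4% of *Krt17* and 3.0% of *Krt7*. No such copy was found for *Krt18*, *Krt19*, *Krt15*, *Krt23* or *Krt10*. The levels of *Krt8*, *Krt14*, *Krt5* and *Krt17* are therefore uncertain to the extent that reads were lost to copies. An exon of *Gm11940* on the opposite strand covered 6.97% of the exon bases of *Krt10*, and counting did not use strand.

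Library totals lay between 36007737 and 42811337 counts, and genes of milk proteins took 26.3% to 34.0% of them in WT and 12.7% to 21.8% in libraries labelled *Tardbp* KO. *Tardbp* itself had 187 ± 32.6 CPM (SD, n = 3) against 188 ± 28.2 CPM (SD, n = 4), a gene total that includes the exons outside the deletion and does not check the labels. Lymphocyte genes differed most among the marker lists, with a summed level of 38.7 to 52.9 CPM in WT and of 419, 65.3, 588 and 129 CPM in *Tardbp* KO replicates 1 to 4. All 10 members passed the filter on low counts, with at least 183 counts in every library. Their counts were tested with all 17175 genes that passed, and levels are in CPM, counts relative to the library total after TMM scaling. The test was the quasi-likelihood (QL) test of edgeR, from which come the log2 fold changes (log2FC, *Tardbp* KO over WT), their standard errors (SE) and the QL p, adjusted by Benjamini-Hochberg over all these genes.

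Of the simple keratins, *Krt7* and *Krt8* were higher in every library labelled *Tardbp* KO than in every WT library, while *Krt18* and *Krt19* overlapped. All 4 basal keratins had a lower mean in libraries labelled *Tardbp* KO, with the largest difference for *Krt15*, but each overlapped with WT. In bulk tissue, fewer cells of a type and less RNA per cell cannot be told apart. The study's methods set limits of 0.01 on the adjusted p from edgeR and of 1 on the log2FC in either direction, without naming the edgeR test. Applied to the QL test, which was chosen here, they left no member, though the paper reports differentially expressed genes at L1. Of all genes 0% passed (0 of 17175), and at an adjusted QL p under 0.05 with no fold limit 0 of the 10 keratins and 0.00582% of all genes did. An unadjusted p under 0.05 was found for 3 of the 10 keratins, *Krt7*, *Krt8* and *Krt15*, and for 21.4% of all genes tested. Groups did not overlap for 2 of the 10 keratins and for 18.7% of all genes tested (9.07% above and 9.62% below WT), so neither count stands apart from the table as a whole. By edgeR's exact test and by DESeq2 with the same limits, *Krt7* alone of the 10 was called, against 2.48% of all genes (1.04% higher, 1.44% lower) and 3.31% of all genes (1.68% higher, 1.63% lower).

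**Figure D1:**
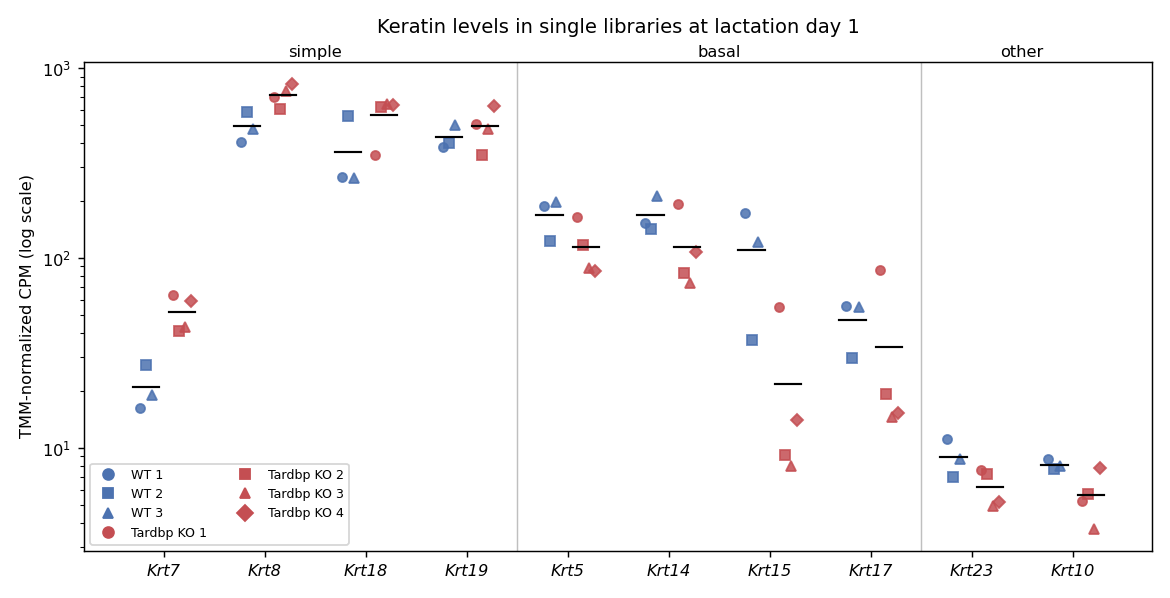
TMM-normalized CPM of the 10 keratins (log axis) in each WT and *Tardbp* KO library at L1, with a bar at the mean of each group and a marker shape for each replicate number. All *Tardbp* KO points of *Krt7* and *Krt8* lie above all WT points, and *Tardbp* KO replicate 1 lies apart from the other *Tardbp* KO libraries for *Krt18*, *Krt15* and *Krt17*.

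*Krt7* (ENSMUSG00000023039) encodes a type II keratin of ductal and glandular epithelia. In WT replicates 1 to 3 it had 16.2, 27.2 and 19.1 CPM, against 63.9, 41.3, 43.2 and 59.1 CPM in *Tardbp* KO replicates 1 to 4. Every *Tardbp* KO library thus lay above the highest WT library, replicate 2. The means were 20.8 ± 5.69 CPM (SD, n = 3) and 51.9 ± 11.3 CPM (SD, n = 4), 2.49-fold apart. The log2FC was 1.31 (SE 0.235, adjusted p = 0.0678 by edgeR QL), and an exact permutation test of log2 CPM gave p = 0.0286, the smallest that 35 splits allow. Leaving out any single library gave a log2FC between 1.16 and 1.55. The adjusted p was 0.000131 in edgeR's exact test and 8.46e-05 in DESeq2.

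*Krt7* was the only keratin of the 10 with UG repeats in its transcript, the motif that TDP-43 is known to bind. Runs were searched on the sense strand as at least 3 consecutive TG, without overlap, in the longest annotated protein-coding transcript. The *Krt7* transcript of 4094 bases holds 3 such runs with 23 UG dinucleotides, all in the 3′ UTR in exon 9, its last. The longest has 16 UG dinucleotides, at 101258723 to 101258754 of chromosome 15 on the plus strand. Its first bases are shown because they mark this transcript off from the other 9. Capitals mark the repeat, which goes on beyond the last base printed.
Krt7 3′ UTR, chr15:101258713-101258742: gagcctaggcTGTGTGTGTGTGTGTGTGTG
Among the 15112 tested genes with an annotated protein-coding transcript, 4.96% had more UG dinucleotides in runs than *Krt7*, and 28.5% had no run, as had the other 9 keratins. The transcripts of those 9 are shorter, with 1400 to 2190 bases, and the counts of runs were not adjusted for length. A match of letters does not show that the protein binds there.

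*Krt8* (ENSMUSG00000049382) and *Krt18* (ENSMUSG00000023043) encode the partners of the luminal filament. In WT replicates 1 to 3 *Krt8* had 407, 588 and 478 CPM, against 698, 604, 751 and 819 CPM in *Tardbp* KO replicates 1 to 4. The groups did not overlap, but the highest WT library, replicate 2, lay just under the lowest *Tardbp* KO library, also replicate 2. Means were 491 ± 91.5 CPM (SD, n = 3) and 718 ± 90.8 CPM (SD, n = 4), with a log2FC of 0.55 (SE 0.200, adjusted p = 0.165 by edgeR QL, exact permutation p = 0.0571). *Krt18* had 265, 555 and 262 CPM in WT and 346, 624, 646 and 638 CPM in *Tardbp* KO libraries. Here WT replicate 2 lay near *Tardbp* KO replicates 2 to 4, and *Tardbp* KO replicate 1 lay near the other two WT libraries. The means of *Krt18*, 361 ± 168 CPM (SD, n = 3) and 563 ± 145 CPM (SD, n = 4), differed by 0.64 on the log2 scale (SE 0.334, adjusted p = 0.309 by edgeR QL, exact permutation p = 0.171).

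*Krt19* (ENSMUSG00000020911), the type I keratin without a tail domain, had 383, 404 and 502 CPM in WT and 506, 348, 479 and 633 CPM in *Tardbp* KO libraries. The lowest and the highest library were both labelled *Tardbp* KO. Its log2FC was 0.19 (SE 0.226, adjusted p = 0.667 by edgeR QL, exact permutation p = 0.514). It was 0.03 without *Tardbp* KO replicate 4 and 0.33 without *Tardbp* KO replicate 2. The median log2FC of the 4 simple keratins was 0.59, and that of all genes tested was 0.05. The former was 0.90 without WT replicate 2, and without that library 6 of the 10 keratins, and 25.4% of all genes, had an unadjusted p under 0.05.

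*Krt5* (ENSMUSG00000061527) and *Krt14* (ENSMUSG00000045545) encode the partners of the basal filament. In WT replicates 1 to 3 *Krt5* had 187, 123 and 196 CPM, against 165, 116, 87.9 and 85.6 CPM in *Tardbp* KO replicates 1 to 4. *Krt14* had 152, 141 and 211 CPM in WT and 191, 83.4, 73.5 and 107 CPM in *Tardbp* KO libraries. In both genes *Tardbp* KO replicate 1 lay within the range of the WT libraries and the other *Tardbp* KO libraries lay below it. Both had a mean of 168 CPM in WT (SD 39.7 for *Krt5* and 37.7 for *Krt14*, n = 3) and of 114 CPM in *Tardbp* KO libraries (SD 36.8 and 53.3, n = 4). The log2FC was −0.57 in each (SE 0.264 and 0.323, adjusted p = 0.256 and 0.353 by edgeR QL, exact permutation p = 0.114 and 0.171). The log2FC of *Krt14* was −0.93 without *Tardbp* KO replicate 1 and −0.37 without WT replicate 3.

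*Krt15* (ENSMUSG00000054146), a type I keratin known as a marker of basal progenitor cells in skin, had the widest range of the 10 on a log scale. In WT replicates 1 to 3 it had 172, 36.7 and 122 CPM, against 55.1, 9.16, 8.0 and 14.1 CPM in *Tardbp* KO replicates 1 to 4. WT replicate 2 lay below *Tardbp* KO replicate 1, and the other libraries were separated by genotype label. The means were 110 ± 68.2 CPM (SD, n = 3) and 21.6 ± 22.5 CPM (SD, n = 4), with a log2FC of −2.35 (SE 0.734, adjusted p = 0.128 by edgeR QL, exact permutation p = 0.0857). *Krt15* made up 30.3%, 11.1% and 20.8% of the CPM of the basal keratins in WT libraries and 11.1%, 4.01%, 4.35% and 6.32% in the others, so that WT replicate 2 and *Tardbp* KO replicate 1 had nearly the same share.

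*Krt17* (ENSMUSG00000035557), known from stressed epidermis and from basal epithelia, had 56.0, 29.7 and 55.2 CPM in WT and 86.6, 19.2, 14.4 and 15.3 CPM in *Tardbp* KO libraries. The highest value of all was that of *Tardbp* KO replicate 1, while the other *Tardbp* KO libraries lay below every WT library. The log2FC was −0.47 (SE 0.624, adjusted p = 0.709 by edgeR QL, exact permutation p = 0.286). The median of the 4 basal keratins was −0.57. Without *Tardbp* KO replicate 1 it was −1.23, *Krt17* had a log2FC of −1.53 and *Krt15* of −3.40, and 8 of the 10 keratins had an unadjusted p under 0.05, against 20.2% of all genes in that fit. None of the 8 was past the study's limits there.

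*Krt23* (ENSMUSG00000006777) and *Krt10* (ENSMUSG00000019761) were the least abundant in CPM. *Krt23* had 11.1, 7.03 and 8.68 CPM in WT and 7.62, 7.29, 4.91 and 5.15 CPM in *Tardbp* KO libraries, with a log2FC of −0.52 (SE 0.251, adjusted p = 0.276 by edgeR QL, exact permutation p = 0.171). *Krt10* had 8.69, 7.75 and 8.03 CPM in WT and 5.26, 5.71, 3.75 and 7.81 CPM in *Tardbp* KO libraries, with a log2FC of −0.53 (SE 0.259, adjusted p = 0.274 by edgeR QL, exact permutation p = 0.0857). In *Krt10* only *Tardbp* KO replicate 4 reached the WT range. Of the markers of skin keratinocytes, 4 of 10 passed the filter, 3 were at 0 in every library, and *Sbsn* held most of their summed level of 45.3 to 176 CPM in WT and 118 to 232 CPM in *Tardbp* KO libraries.

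**Figure D2:**
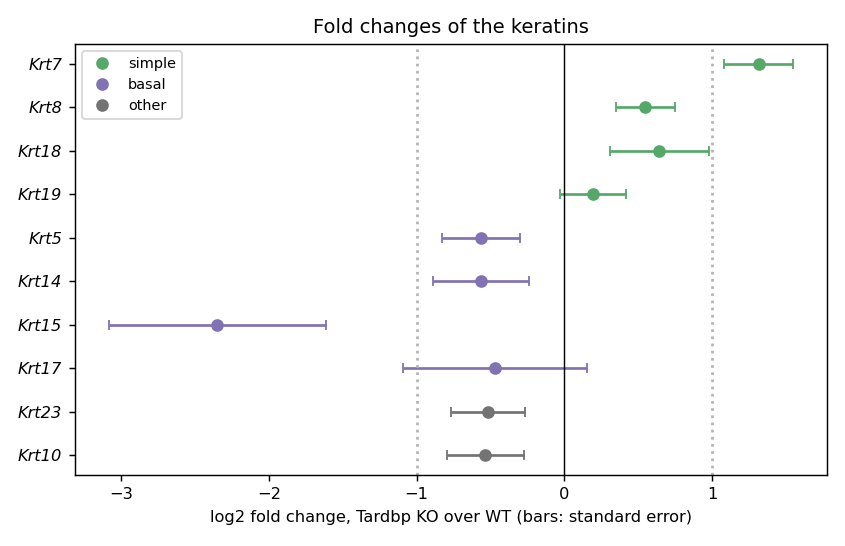
Log2 fold change of each keratin, *Tardbp* KO over WT, with its SE from edgeR's quasi-likelihood fit, coloured by keratin class, with dotted lines at the fold limits of 1 and −1. The 4 simple keratins lie above 0 and the other 6 below, and *Krt7* and *Krt15* lie beyond the dotted lines.

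Per kb of exon, the order in WT libraries was *Krt8*, *Krt18* and *Krt19*, with 272 ± 50.7, 258 ± 120 and 232 ± 34.3 CPM per kb (SD, n = 3), which do not differ beyond their spread. *Krt14*, *Krt5* and *Krt15* followed with 95.8 ± 21.5, 76.9 ± 18.1 and 61.5 ± 38.1 CPM per kb (SD, n = 3), also within their spread. *Krt17* (29.8 ± 9.48) overlapped with *Krt15* in these spreads, and *Krt23* (5.71 ± 1.31), *Krt10* (3.89 ± 0.231) and *Krt7* (2.96 ± 0.807) came last. In each of the 4 *Tardbp* KO libraries *Krt7* stood above *Krt23* and *Krt10*, with a mean of 7.36 ± 1.61 CPM per kb (SD, n = 4). *Krt15* stood above *Krt17* in each of the 3 WT libraries, and below it in each of the 4 *Tardbp* KO libraries. The exon length of 7049 bases that the file gives for *Krt7* joins all its transcripts, and per kb of its longest protein-coding transcript the level was 5.09 ± 1.39 in WT and 12.7 ± 2.77 in *Tardbp* KO libraries.

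The partners kept no fixed ratio. *Krt8* per *Krt18*, per kb of exon, was 1.19, 0.822 and 1.41 in WT replicates 1 to 3 and 1.57, 0.751, 0.902 and 0.996 in *Tardbp* KO replicates 1 to 4. *Krt5* per *Krt14* was 0.983, 0.698 and 0.743 in WT and 0.692, 1.12, 0.961 and 0.640 in *Tardbp* KO libraries. Both ranges overlapped between groups. The summed type II members per summed type I members, per kb, lay between 0.500 and 0.520 in WT and between 0.558 and 0.653 in *Tardbp* KO libraries, without overlap, also with the lengths of the longest protein-coding transcripts (0.469 to 0.495 against 0.536 to 0.615). This rested on *Krt15*, of type I. With *Krt15* left out of the sums the groups overlapped, and WT replicate 1 lay above *Tardbp* KO replicate 2.

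The contrast of the classes was taken per library as the mean log2(CPM + 1) of the basal keratins minus that of the simple keratins, as a description without a test. It was −0.34, −1.88 and −0.54 in WT replicates 1 to 3 and −1.42, −2.85, −3.36 and −3.27 in *Tardbp* KO replicates 1 to 4. *Tardbp* KO replicates 2 to 4 lay below every WT library, and *Tardbp* KO replicate 1 lay above WT replicate 2. The means were −0.92 ± 0.84 (SD, n = 3) and −2.73 ± 0.90 (SD, n = 4). As a share of the CPM of all 10 keratins, basal keratins took 34.2%, 17.2% and 31.3% in WT libraries and 23.4%, 12.3%, 8.71% and 9.32% in the others. Within lane 4, the only sequencing lane with both genotypes (WT replicate 2, *Tardbp* KO replicates 3 and 4), the median log2 difference was 0.43 for simple and −0.81 for basal keratins, with no test.

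**Figure D3:**
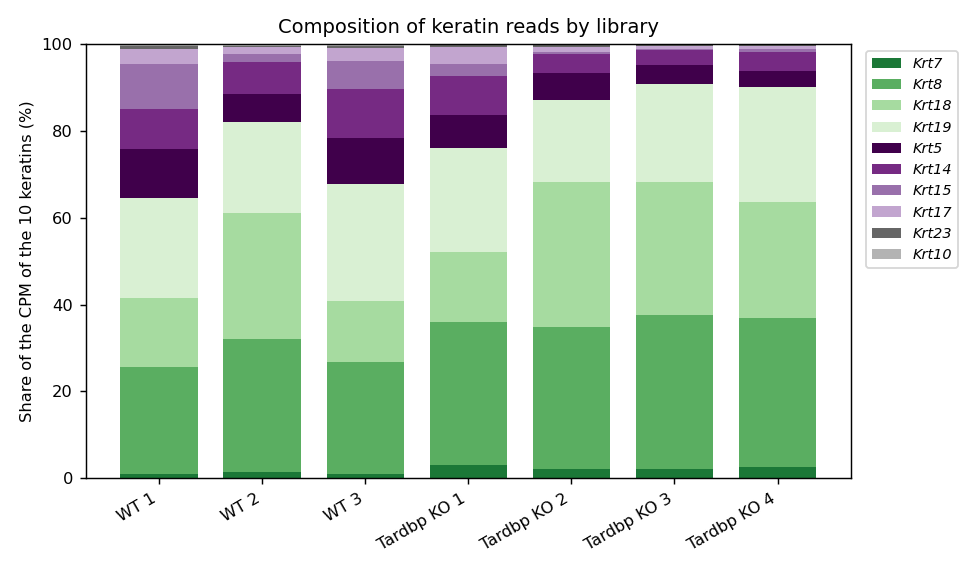
Share of the summed CPM of the 10 keratins taken by each (percent, stacked to 100) in the 7 libraries, with simple keratins in green, basal keratins in purple and the others in grey. The purple share runs from 17.2% to 34.2% in WT and from 8.71% to 23.4% in *Tardbp* KO libraries.

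Other genes of the same cell layers were set beside the keratins. Of 10 myoepithelial genes that are not keratins, none had an unadjusted p under 0.05 (lowest adjusted QL p 0.312, median log2FC 0.02), and their summed level was 1363 to 2211 CPM in WT and 1161 to 3388 CPM in *Tardbp* KO libraries. *Acta2*, the smooth muscle actin of these cells, had 773, 415 and 685 CPM in WT and 1442, 369, 512 and 487 CPM in *Tardbp* KO libraries, with the highest value in replicate 1, as for *Krt17*. *Oxtr*, the oxytocin receptor that triggers their contraction, had a log2FC of −0.31 (SE 0.317, adjusted p = 0.622 by edgeR QL).

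Relative to these genes, the basal keratins did not overlap between groups. The mean log2(CPM + 1) of the basal keratins minus that of the 10 myoepithelial genes, a measure chosen after the values were seen and given without a test, was 0.25, −0.13 and 0.30 in WT replicates 1 to 3 and −0.45, −0.90, −1.34 and −1.01 in *Tardbp* KO replicates 1 to 4. Without *Krt15* it lay between 0.11 and 0.33 in WT and between −0.75 and −0.12 in *Tardbp* KO libraries. Taken singly against the same genes, *Krt5*, *Krt14* and *Krt15* did not overlap between groups, but *Krt5* and *Krt14* nearly did. The lowest WT value of *Krt5* was 0.753 and its highest *Tardbp* KO value 0.735. For *Krt14* these were 0.492 and 0.464. *Krt17* overlapped, because *Tardbp* KO replicate 1 (−0.80) lay above the WT libraries (−1.26 to −0.91). That library had the highest mean of the myoepithelial genes, 7.26 against 6.20 to 6.77 in WT. Its basal keratin mean, 6.80, lay within WT (6.07 to 7.02), so its place below WT here came from the myoepithelial genes. The share of all genes without overlap on this measure was not computed.

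Of 10 luminal genes that are not keratins, 7 had a positive log2FC, and 2 of these, *Cdh1* and *Cldn3*, an unadjusted p under 0.05, with a median of 0.30. Their summed level was 1110 to 1768 CPM in WT and 1564 to 2200 CPM in *Tardbp* KO libraries. *Cdh1*, the gene of E-cadherin, had 123, 170 and 139 CPM in WT and 227, 215, 256 and 285 CPM in *Tardbp* KO libraries, without overlap. Its log2FC was 0.77 (SE 0.174, adjusted p = 0.0806 by edgeR QL). *Cldn3*, the gene of a tight junction protein, had 68.1, 305 and 120 CPM in WT and 342, 272, 320 and 495 CPM in *Tardbp* KO libraries, with WT replicate 2 among the latter, as for *Krt18*.

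The simple keratins were also set against these genes, in the same way and without a test. The mean log2(CPM + 1) of the 4 simple keratins minus that of the 10 luminal genes was 1.23, 1.17 and 1.35 in WT replicates 1 to 3 and 1.60, 1.42, 1.69 and 1.61 in *Tardbp* KO replicates 1 to 4, without overlap. Of the 4 members, *Krt7* was the only one that did not overlap on its own, with −2.02 to −1.89 in WT and −1.27 to −0.60 in *Tardbp* KO libraries. Each member has the same weight in the class mean, and without *Krt7* the groups overlapped. WT replicate 3 then lay above *Tardbp* KO replicates 1 and 2. *Krt7* took 1.51% to 1.73% of the CPM of the simple keratins in WT and 2.25% to 3.96% in *Tardbp* KO libraries. On its own *Krt19* lay the other way, with a mean of 2.37 in WT and 2.20 in *Tardbp* KO libraries, within overlapping ranges. Against the genes of their layer, the class mean was higher for simple and lower for basal keratins in every *Tardbp* KO library. For the simple keratins this rested on *Krt7*. For the basal keratins of *Tardbp* KO replicate 1 it rested on the higher myoepithelial genes. Taken singly on these measures, *Krt7*, *Krt5*, *Krt14* and *Krt15* did not overlap between groups, while *Krt8*, *Krt18*, *Krt19* and *Krt17* each did. In plain CPM *Krt5*, *Krt14* and *Krt15* overlapped as well. The share of all genes without overlap was computed for neither measure.

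**Figure D4:**
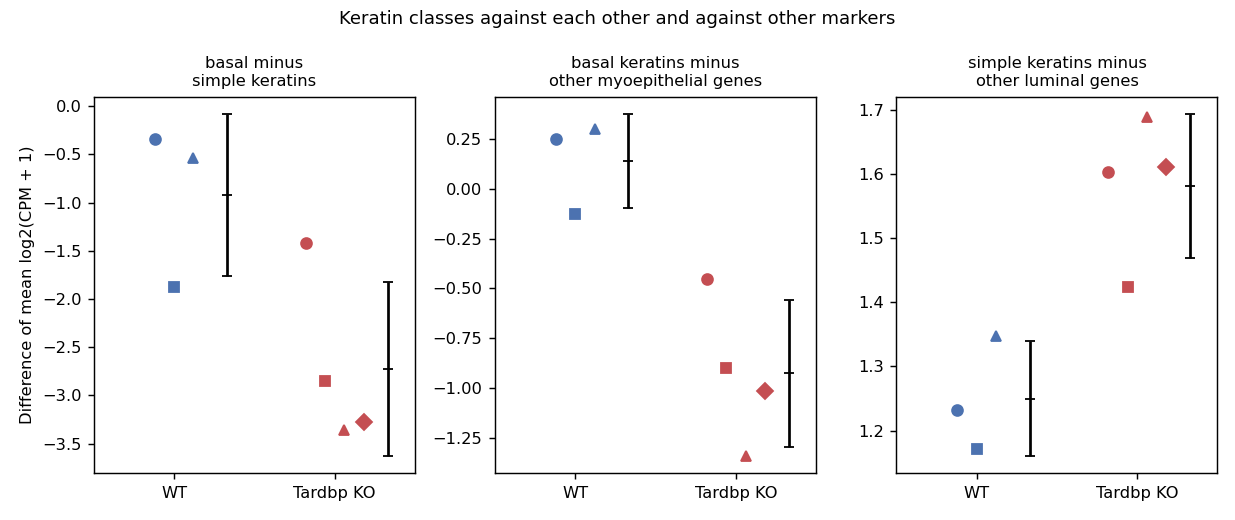
Per library, the mean log2(CPM + 1) of basal minus simple keratins, of basal keratins minus 10 non-keratin myoepithelial genes, and of simple keratins minus 10 non-keratin luminal genes, with marker shapes by replicate number and bars of the mean ± SD of each group (WT n = 3, *Tardbp* KO n = 4). WT and *Tardbp* KO points overlap in the first difference (means −0.92 and −2.73) and do not overlap in the other two.

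Milk protein genes, expressed by the luminal cells that also carry the simple keratins, lay the other way. All 6 were lower in every *Tardbp* KO library than in every WT library, as were 9.62% of all genes tested. Their median log2FC was −1.09, with an unadjusted p under 0.05 for 4 of them (lowest adjusted QL p 0.0858). The paper, by contrast, reports from qRT-PCR that several milk protein genes did not change with *Tardbp* loss in mammary epithelial cells, also at L1. It also found the proteins of milk alike in both genotypes at lactation day 2. The cause of the difference between the counts and the qRT-PCR was not tested. Genes of hormone-sensing luminal cells had a median of −0.25 over 7 of 8 tested, and 2 of the 7, *Prlr* and *Cited1*, had an unadjusted p under 0.05, both lower.

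Of the 40 other keratin genes in the table, 11 passed the filter on low counts, 10 were at 0 in every library, and the highest count among the rest was 43. Of the 11, 6 had a positive and 5 a negative log2FC, with a median of 0.05. *Krt80*, a type II keratin, was the only one with an unadjusted p under 0.05. It had 3.23, 4.71 and 2.91 CPM in WT and 9.47, 9.99, 5.47 and 7.25 CPM in *Tardbp* KO libraries, which did not overlap, with a log2FC of 1.15 (SE 0.292, adjusted p = 0.0901 by edgeR QL).

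Keratin filaments attach to the cell's junctions at desmosomes and hemidesmosomes. Of 20 genes listed for these structures, 18 were tested, with a median log2FC of 0.17 and an unadjusted p under 0.05 for 5, of which *Itgb4*, *Evpl*, *Pkp4* and *Dsc3* were higher and *Pkp2* lower. *Jup*, the gene of plakoglobin, had 299 ± 39.0 CPM in WT (SD, n = 3) against 311 ± 45.3 CPM in *Tardbp* KO libraries (SD, n = 4), and *Plec*, the gene of the filament linker plectin, 176 ± 28.8 and 213 ± 68.5 CPM, differences within their spread. *Dsc3*, a desmosomal cadherin of stratified epithelia, had 0.526, 0.179 and 0.951 CPM in WT and 5.04, 0.368, 7.35 and 0.853 CPM in *Tardbp* KO libraries. Replicates 1 and 3, in which it was high, also had the highest summed levels of lymphocyte genes. Of 9 genes of other intermediate filaments, such as *Vim* and the lamins, none had an unadjusted p under 0.05, with a median of 0.16 and a lowest adjusted QL p of 0.248.

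Transcription factors of the epithelium had a median log2FC of −0.10 over 15 of 17 tested, and 3 had an unadjusted p under 0.05. *Elf5*, which directs the alveolar luminal fate, had 1108, 1017 and 1048 CPM in WT and 434, 798, 718 and 864 CPM in *Tardbp* KO libraries, all of which lay below WT, replicate 1 lowest. Its log2FC was −0.59 (SE 0.247, adjusted p = 0.214 by edgeR QL). *Elf3*, a related factor of epithelial cells, lay the other way, with 15.8, 26.1 and 20.0 CPM in WT and 26.8, 31.8, 26.2 and 40.0 CPM in *Tardbp* KO libraries (log2FC 0.60, SE 0.219, adjusted p = 0.168 by edgeR QL). *Grhl2*, a regulator of epithelial junctions, was the other of the 3, with a higher mean in *Tardbp* KO libraries.

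Markers of other cells of the gland were set beside the keratins as well. All 10 lymphocyte genes had a positive log2FC and an unadjusted p under 0.05, with a median of 3.51, though no adjusted QL p was under 0.0739. Myeloid genes had a median of 0.57, adipocyte genes of 0.33, skeletal muscle genes of 0.54, fibroblast genes of −0.05, endothelial genes of −0.11 and skin keratinocyte genes of −0.41. In these lists *Cldn5* of the endothelium (higher) and *Lor* of skin (lower) were the only genes with an unadjusted p under 0.05. Without *Tardbp* KO replicates 1 and 3, the libraries with the highest lymphocyte levels, 5 of the 10 keratins and 12.5% of all genes had an unadjusted p under 0.05, and the median was 0.67 for simple and −1.13 for basal keratins. The part of these cells in the differences of the keratins was not tested.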

How the data were processed

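Total RNA of the glands was sequenced as read pairs by the study. The authors aligned reads to NCBIM37 with STAR (version 2.4.2a in the methods, 2.5.2a in the submitters' processing notes) and deposited whole-number counts per gene from featureCounts 1.4.6-p5 over GENCODE vM1 exons, without strand. The command line shows no paired or multi-mapping option, so mates counted separately and reads with several hits were left out, which lowers genes with near-identical copies. Totals were 36007737 to 42811337 counts per library. That the libraries come from separate mice is not stated in the labels, but the paper's heatmap legend counts as many mice per genotype. The p-values measure the spread between these libraries.

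After the study's methods, 37 mitochondrial and 580 ribosomal genes and genes that reached 5 counts in fewer than 4 libraries were removed, which left 17175. These were fitted with edgeR 4.0.16 (TMM scaling, quasi-likelihood test, R 4.3.3, limma 3.58.1), with p-values adjusted over all of them by Benjamini-Hochberg, since the methods name edgeR but no test. Standard errors are the log2 fold change over the root of F. Permutation tests were two-sided and exact over the 35 splits of log2(CPM + 1). DESeq2 1.42.0 was an alternative, and Python 3.11.15 with pandas 2.3.3, numpy 2.4.6 and matplotlib 3.10.9 did the rest. Sequences were read from NCBIM37 with the GENCODE vM1 annotation.

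Named were the 10 keratins and, of each other list, up to 4 genes by mean CPM and up to 2 by change. Genes that make up a count of 5 or fewer were named after their values were seen. The members, lists and tests were chosen with earlier results of these data known. Labels gave the groups. A library named in the command line without a column was not analysed here.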

Additional observations from a re-analysis of the deposited data

Results flagged for a closer look

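In groups of 4 libraries, the gap of the highest or lowest library to its neighbour was compared with the range of the group by Dixon's criterion at 95%, which chance passes in about 1 in 20 groups. Of the 10 keratins, 3 passed it in the *Tardbp* KO group, and all 3 through replicate 1, against 6.06% of the 17175 genes tested in any *Tardbp* KO library and 2.27% through replicate 1. *Krt18* was lowest there, with 346 CPM against 624 to 646 CPM in the other *Tardbp* KO libraries. *Krt15* was highest there, with 55.1 CPM against 8.0 to 14.1 CPM, and so was *Krt17*, with 86.6 CPM against 14.4 to 19.2 CPM. The same library had the highest summed level of myoepithelial genes that are not keratins (3388 CPM), the lowest *Elf5* (434 CPM) and a summed level of lymphocyte genes of 419 CPM. The part of these in the 3 values was not tested. The WT group, with 3 libraries, was not tested in this way.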

How the results depend on the processing

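Over 16 alternatives with fewer libraries, other scaling or filters, or the replicate block, the log2 fold changes of the 10 keratins gave 160 values, all with the sign of the reported value. These alternatives reuse the same counts and are not independent. The value of *Krt19* was as low as 0.03 (SE 0.211), without *Tardbp* KO replicate 4. The other 5 alternatives changed the test or the threshold on the same libraries, so their fold changes could hardly move. Of 17175 genes, 0 passed the limits in edgeR's quasi-likelihood test, 3674 had an unadjusted p under 0.05, and dropping the fold limit with the adjusted p at 0.05 left 1 gene. Without the filter on low counts 1 gene passed. Other tests with the same limits called more genes, 426 in edgeR's exact test, 464 in edgeR's likelihood ratio test and 568 in DESeq2, each with 1 of the 10 keratins, *Krt7*. The adjusted p of *Krt7* lay between 8.46e-05 and 0.312 over all alternatives, and that of *Krt15* between 0.0197 and 0.407. Scaling by library size alone moved the median of all genes from 0.05 to 0.42 on the log2 scale, the median of simple keratins to 0.95 and that of basal keratins to −0.20, with 5 keratins and 33.8% of all genes at an unadjusted p under 0.05. Without *Tardbp* KO replicates 1 and 3 there were also 5 such keratins, beside 12.5% of all genes. With each library left out in turn, their number lay between 2 and 8 (highest without *Tardbp* KO replicate 1), the median of simple keratins between 0.45 and 0.90 (highest without WT replicate 2), the median of basal keratins between −1.23 and −0.41, and the log2 fold change of *Krt18* between 0.46 and 1.09, of *Krt19* between 0.03 and 0.33, of *Krt14* between −0.93 and −0.37, of *Krt17* between −1.53 and −0.22 and of *Krt23* between −0.66 and −0.33. Genes and keratins past the limits stayed at 0 in those fits. The causes were not tested.

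Replicate numbers are shared by the genotypes, but libraries with the same number did not all deviate together (correlations of 0.44, 0.07 and −0.08 for numbers 1 to 3), so the numbers were not taken as pairs. With the replicate block, 0 genes passed the limits, 4 keratins and 24.6% of all genes had an unadjusted p under 0.05, and the medians were 0.55 for simple and −0.65 for basal keratins. Of the 7 libraries, 4 were the only ones of their lane, and lane 4, with 1 WT library, gave values but no test. Each keratin had at least 183 counts in every library.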

Other observations

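The genes whose level ran most like that of the simple keratins over the 7 libraries, among 9374 genes with a mean of at least 10 CPM, were *Rragd*, a GTPase of nutrient signalling (r = 0.997), *Hsdl1* (r = 0.997), *Prmt2*, an arginine methyltransferase (r = 0.996), the small GTPase *Nras* (r = 0.992) and *Rhou* (r = 0.992). *Rragd* had 4.55 CPM in WT and 15.4 CPM in *Tardbp* KO libraries on average. For the basal keratins they were *Tinagl1*, the gene of an extracellular matrix protein (r = 0.996), *Grwd1* (r = 0.987), *Uba1*, the ubiquitin-activating enzyme (r = 0.984), *Hoxd9* (r = 0.976) and *1810055G02Rik* (r = 0.975). *Tinagl1* had 188 CPM in WT and 94.2 CPM in *Tardbp* KO libraries on average. The correlations are Pearson's r of log2(CPM + 1) with the class mean, the highest picked from all these genes, and are given as a description. They run over 7 libraries that differ in genotype label and depth, so differences between the groups enter r.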
